A study of Mus musculus with 4 samples.

Results

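Iron handling and antioxidant genes were described in microglia, the resident macrophages of the brain, by the levels of 10 listed genes. Each gene was matched to probe sets that carry exactly 1 gene symbol and was represented by its brightest probe set. By this rule 9 of the 10 genes were found, among 19630 genes in all: Fth1, Ftl1, Hmox1, Slc40a1, Tfrc, Nqo1, Slc7a11, Txnrd1 and Srxn1. Gclm, which encodes the modifier subunit of the enzyme that begins glutathione synthesis, was listed on a single probe set together with a second symbol and was given no value. Whole brains of male mice of the strain C57BL/6J supplied the cells, in 4 groups, which were OVA (the allergy group) and PBS (the control group) at postnatal day 70 (P70), and OVA and PBS at postnatal day 30 (P30). Mice were sampled 1 day after they were challenged through the nose, and each group's single array received a pool of 4 samples. With 1 array per group there were no replicates and no test, and every difference given here is one between 2 arrays, whose number limits the precision. In pooled bulk material, fewer cells of a type and less RNA per cell cannot be told apart.

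Cells store iron in ferritin, a shell built from heavy chains, which oxidise the metal, and light chains, which help to lay it down as mineral. The transferrin receptor brings iron in, ferroportin lets it out, and haem oxygenase frees it from haem. Iron regulatory proteins bind the ferritin and transferrin receptor transcripts and set how far they are translated or how long they last. Free iron promotes oxidation of lipids and proteins, against which the factor NRF2 switches on a set of antioxidant genes while its rival BACH1 holds several of them down.

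Levels are log2 of the deposited intensity. The mean of a gene's 4 levels had to reach 7.09, the midpoint of the ranked means, for the gene to count as expressed, and 9815 genes did. Of the 9 genes, 4 were expressed (Ftl1, Slc40a1, Fth1 and Txnrd1) and 5 lay under this floor (Srxn1, Hmox1, Tfrc, Slc7a11 and Nqo1), with 4 of the 5 under it on every array. Small differences of those 5 genes are differences between dim signals. Of 10 microglial marker genes listed, 9 were found and all 9 were expressed. None of the 9 was 1.5-fold apart between OVA and PBS as deposited. Their OVA minus PBS differences ran from -0.00141 (Aif1) to 0.51 (P2ry12) at P70, with 7 of 9 above 0, and from -0.27 (Trem2) to 0.00188 (Siglech) at P30, with 1 of 9 above 0. After quantile normalization P2ry12 and Csf1r were past 1.5-fold at P70, at 0.92 and 0.71.

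The highest value of an array was 19.93 in OVA and 19.93 in PBS at P70, and 19.74 in OVA and 19.88 in PBS at P30. Many probe sets crowd at this limit at P30, where 109 in OVA and 98 in PBS lay within 0.01 log2 units of it, against 13 in OVA and 19 in PBS at P70. None of the 9 genes came near it. Ftl1, the member closest to the limit, stayed 6.46 log2 units under it in OVA and 7.09 in PBS at P70, and 8.11 in OVA and 8.86 in PBS at P30. Fth1 lay between 10.8 and 11.3 log2 units under the limit on the 4 arrays. No ferritin value was at the upper limit of its array.

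**Figure D1:**
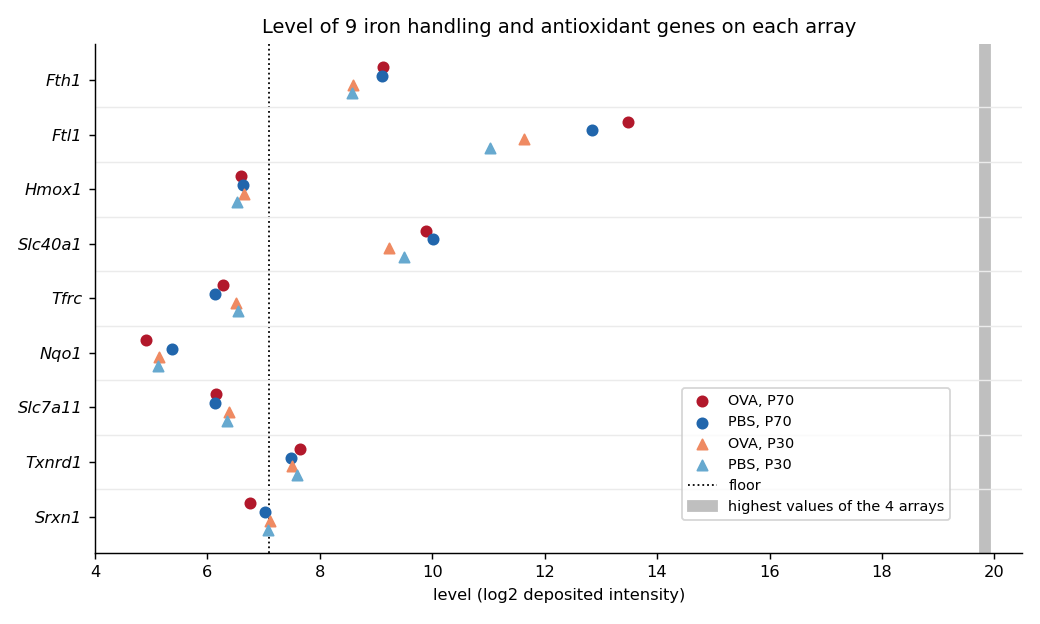
Level of each of the 9 genes on the 4 arrays, in log2 deposited intensity on the horizontal axis, 1 point per array, with the floor of 7.09 as a dotted line and the highest values of the arrays (19.74 to 19.93) as a grey band. The 4 points of Ftl1 spread over 2.45 log2 units and stay clear of the grey band, whereas those of Hmox1 and Txnrd1 lie within 0.13 and 0.16; points of different genes come from different probes and are not to be set against each other.

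Ftl1, the ferritin light chain gene, had the widest spread of the 9 genes. Its level was 13.47 in OVA and 12.85 in PBS at P70, and 11.63 in OVA and 11.02 in PBS at P30. The OVA array was the higher one at each age, and both P70 arrays stood above both P30 arrays. OVA minus PBS came to 0.63 at P70, or 1.55-fold, and to 0.61 at P30, or 1.52-fold, so the difference between the ages was 0.02. Ftl1 was the 1 member of 9 at least 1.5-fold apart between OVA and PBS at P70, where 2.4% of the 19630 genes were that far up in OVA and 1.42% that far down. It was likewise the 1 member of 9 at P30, where 0.606% of genes were that much higher and 0.713% that much lower. Among the 9815 expressed genes its difference ranked number 306 from the top at P70 and number 55 at P30. The call at P70 was narrow: it ended when each array was centred on its median (0.54) or along the level (0.47), and at P30 the value was 0.63 and 0.68 under the same settings. Ftl1 is one of 13 expressed genes that reached 1.5-fold above PBS at both ages.

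Ferritin light chain sequence is present in several places in the mouse genome, so the Ftl1 signal is uncertain as to its source. The platform annotation ties the Ftl1 probe set to 3 gene IDs, namely Ftl1 itself, the pseudogene Ftl1-ps2 and an ID with no entry in the gene table used here. A pair of further probe sets list Ftl1 beside other symbols and were assigned to no gene. The probe set that lists Ftl1 and Mir692-2b stood at 16.35 in OVA and 15.63 in PBS at P70, and at 13.19 in OVA and 12.73 in PBS at P30. It was higher in OVA by 0.73 at P70 and 0.46 at P30. The probe set that lists Ftl1, Ftl2 and 3 Mir692 names stood at 15.98 in OVA and 15.13 in PBS at P70, and at 12.51 in OVA and 12.19 in PBS at P30. It was higher in OVA by 0.86 at P70 and 0.32 at P30. All 3 probe sets thus had the OVA array on top at each age, and at P30 the Ftl1 probe set alone reached 1.5-fold. The closest of them to an array's upper limit still lay 3.58 log2 units under it.

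Fth1, the ferritin heavy chain gene, whose product carries the iron-oxidising site, was within 1.5-fold between OVA and PBS at each age. Its level was 9.13 in OVA and 9.10 in PBS at P70, and 8.60 in OVA and 8.58 in PBS at P30. OVA minus PBS was 0.02 at each age, within 1.02-fold, and at P70 it turned to -0.07 after median centring and -0.12 after centring along the level. The pseudogene probe set Fth-ps2, which has a symbol of its own, was at 10.16 in OVA and 9.45 in PBS at P70, and at 7.44 in OVA and 7.70 in PBS at P30. Its OVA minus PBS difference was 0.70 at P70 and -0.26 at P30, unlike that of Fth1 at P70. On these arrays OVA stood apart from PBS by unequal amounts for the Ftl1 and Fth1 probe sets. The value of Fth1 rests on 1 probe set, and how well it measures the heavy chain transcript was not tested.

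**Figure D2:**
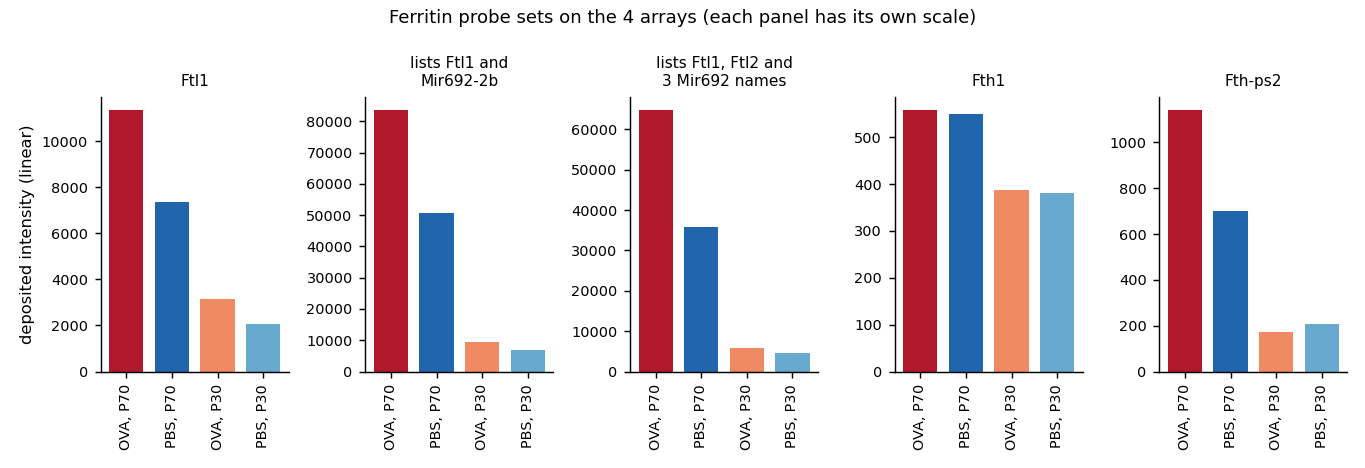
Deposited intensity, on a linear axis that starts at 0 and has its own scale in each panel, of the Ftl1 probe set, the 2 probe sets that list Ftl1 beside other symbols, the Fth1 probe set and the Fth-ps2 probe set, with 1 bar per array. The OVA bar is above the PBS bar at both ages in the first 3 panels, the Fth1 bars are level between treatments at each age, and every P70 bar is above the P30 bars of its panel.

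Slc40a1, which encodes the iron exporter ferroportin, was lower in OVA than in PBS at both ages, by less than 1.5-fold, as deposited and under every scaling tried. Its level was 9.88 in OVA and 10.01 in PBS at P70, and 9.24 in OVA and 9.50 in PBS at P30. OVA minus PBS was -0.13 at P70 and -0.26 at P30. Tfrc, the transferrin receptor gene, was at 6.27 in OVA and 6.14 in PBS at P70, and at 6.50 in OVA and 6.55 in PBS at P30, under the floor on every array, and its differences of 0.13 and -0.05 had opposite signs. Hmox1, the inducible haem oxygenase gene and a target of both NRF2 and BACH1, had the narrowest span of the 9 genes. Its level was 6.59 in OVA and 6.63 in PBS at P70, and 6.65 in OVA and 6.52 in PBS at P30. Its OVA minus PBS differences were -0.03 at P70 and 0.13 at P30.

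Txnrd1, Srxn1, Slc7a11 and Nqo1, which are among the antioxidant genes that NRF2 switches on, were less than 1.5-fold apart between OVA and PBS at each age. They are not all of its targets in the list. Txnrd1, the cytosolic thioredoxin reductase gene, was at 7.66 in OVA and 7.50 in PBS at P70, and at 7.50 in OVA and 7.59 in PBS at P30, a difference of 0.16 at P70 and -0.09 at P30. Srxn1 encodes sulfiredoxin, which repairs over-oxidised peroxiredoxins. It was at 6.76 in OVA and 7.02 in PBS at P70, and at 7.11 in OVA and 7.08 in PBS at P30, with differences of -0.26 and 0.03. Slc7a11 encodes the cystine importer that feeds glutathione synthesis, and its differences were 0.03 at P70 and 0.05 at P30 from levels between 6.13 and 6.39. Nqo1, a quinone reductase gene, was under the floor on every array, at 4.90 in OVA and 5.37 in PBS at P70, and at 5.14 in OVA and 5.12 in PBS at P30. Its difference at P70, -0.47, was the lowest of the 9 genes and did not reach 1.5-fold, and at P30 it was 0.03. The median over the 9 genes was 0.02 at P70 and 0.03 at P30, beside 0.00028 and 0.010 over all 19630 genes, and after median centring the P70 median turned to -0.07.

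**Figure D3:**
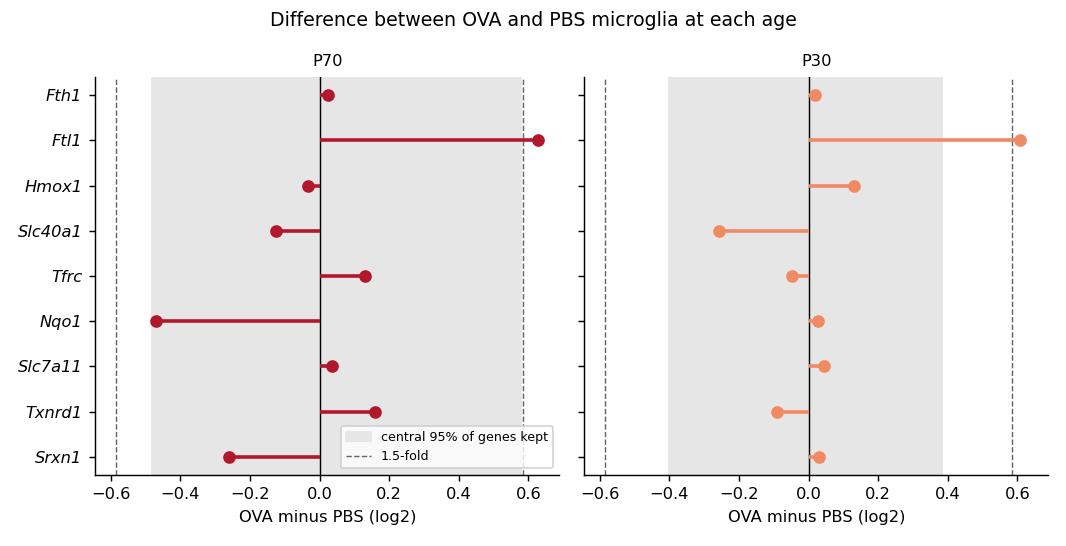
OVA minus PBS difference in log2 units for each of the 9 genes at P70 (left) and P30 (right), each point a difference between 2 arrays, with the 1.5-fold marks dashed and the central 95% of the 19630 genes shaded. Ftl1 is past the mark at both ages (0.63 and 0.61), and the other 8 genes are inside both marks, from -0.47 for Nqo1 to 0.16 for Txnrd1.

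Promoter sequence is shown for the gene that stood apart between OVA and PBS (Ftl1), for the partner chain gene whose probe set did not (Fth1) and for the gene with the most motif matches (Srxn1). The sequences are RefSeq's, build GRCm38.p6, and cover the 250 bases before a transcript start. The table had windows for 8 of the 10 genes. Each was searched on both strands for TGACNNNGC and TGAGNNNGC, the core letters of the antioxidant response element that NRF2 binds, and for TGAGTCA, the AP-1 motif, which can overlap the second of these. Capitals mark the matches. The Ftl1 window is chr7:45459887-45460136 on the minus strand, the Fth1 window chr19:9982396-9982645 on the plus strand (the second of 2 annotated starts) and the Srxn1 window chr2:152105274-152105523 on the plus strand.
Ftl1: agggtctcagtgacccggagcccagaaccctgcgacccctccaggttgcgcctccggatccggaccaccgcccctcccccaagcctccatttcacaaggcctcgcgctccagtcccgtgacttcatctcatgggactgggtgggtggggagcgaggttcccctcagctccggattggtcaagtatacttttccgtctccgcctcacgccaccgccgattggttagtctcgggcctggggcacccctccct
Fth1: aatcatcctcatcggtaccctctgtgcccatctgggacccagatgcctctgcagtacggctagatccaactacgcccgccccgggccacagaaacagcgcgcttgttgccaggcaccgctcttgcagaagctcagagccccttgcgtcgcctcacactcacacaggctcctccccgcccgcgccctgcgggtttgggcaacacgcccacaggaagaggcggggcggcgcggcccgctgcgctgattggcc
Srxn1: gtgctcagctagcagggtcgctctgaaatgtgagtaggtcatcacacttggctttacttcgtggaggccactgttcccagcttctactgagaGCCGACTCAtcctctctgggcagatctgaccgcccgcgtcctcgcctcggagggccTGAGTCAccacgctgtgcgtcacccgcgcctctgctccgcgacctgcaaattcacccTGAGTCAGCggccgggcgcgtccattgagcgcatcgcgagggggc
The Srxn1 window held TGAGTCAGC on the plus strand at 45 to 37 bases before the start, overlapping a TGAGTCA. It also held a second TGAGTCA at 102 to 96 bases and TGAGTCGGC on the minus strand at 158 to 150 bases before the start. The Ftl1 window and both Fth1 windows held none of the 3 motifs, which says only that these letters are not in those 250 bases. Among the other genes, TGACNNNGC occurred once each in the Gclm window and in 1 of 3 Txnrd1 windows, and TGAGNNNGC once in the Slc7a11 window. Of all 32851 promoter windows of this length, 10.2% held TGACNNNGC, 14.4% TGAGNNNGC and 4.46% TGAGTCA. Srxn1, whose promoter had these matches, differed by -0.26 at P70 and 0.03 at P30 between OVA and PBS. Its mean level of 6.99 lay under the floor. Whether these motifs bear on the level of any gene here was not tested.

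By age, Ftl1 was higher at P70 than at P30 in both treatments under every scaling tried. Fth1 and Slc40a1 were higher at P70 as deposited, but after centring along the level P70 minus P30 was -0.02 in OVA and 0.14 in PBS for Fth1, and -0.13 in OVA and -0.05 in PBS for Slc40a1. For the Ftl1 probe set, P70 minus P30 was 1.84 in OVA and 1.82 in PBS, or 3.59-fold and 3.54-fold. The probe sets that list Ftl1 beside other symbols had larger age differences as deposited. With Mir692-2b the difference was 3.16 in OVA and 2.89 in PBS, and with Ftl2 and Mir692 names 3.48 and 2.94. Fth1 was higher at P70 by 0.53 in OVA and 0.52 in PBS, which is 1.44-fold in each. The pseudogene probe set Fth-ps2 was higher at P70 by 2.71 in OVA and 1.75 in PBS. Slc40a1 was higher at P70 by 0.64 in OVA and 0.51 in PBS. P70 minus P30 for Tfrc was -0.23 in OVA and -0.41 in PBS, and for Slc7a11 -0.23 and -0.22. After quantile normalization Slc7a11 turned to 0.16 in OVA and 0.06 in PBS and Tfrc to 0.15 in OVA, whereas Tfrc in PBS was negative under every scaling tried. After median centring Tfrc in PBS reached -0.65, past 1.5-fold. The other 4 genes lay between -0.36 (Srxn1 in OVA) and 0.25 (Nqo1 in PBS). At 1.5-fold, 2 of the 9 genes (Ftl1 and Slc40a1) were higher at P70 in OVA and 1 (Ftl1) in PBS, and none was lower; after median centring Srxn1 (-0.71) and Nqo1 (-0.59) were lower in OVA, and Ftl1 alone was higher. Over all 19630 genes, 18.5% reached 1.5-fold upwards and 9.09% downwards at P70 in OVA, and 13.9% were higher and 5.24% lower in PBS. Shares were greater among the 9815 expressed genes, at 35.8% higher in OVA and 26.9% in PBS, so 2 of 4 expressed members in OVA and 1 of 4 in PBS lie near that background.

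The age differences depended on how arrays were scaled. The median P70 minus P30 difference of expressed genes was 0.33 in OVA and 0.21 in PBS as deposited. Centred along the level, Ftl1 was higher at P70 by 0.72 in OVA and 0.93 in PBS, still past 1.5-fold. Slc40a1 in OVA was 0.29 after median centring and 0.44 after quantile normalization, under 1.5-fold in each. The age comparisons share arrays with the OVA comparisons, and the 2 sets of differences are not independent of each other.

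**Figure D4:**
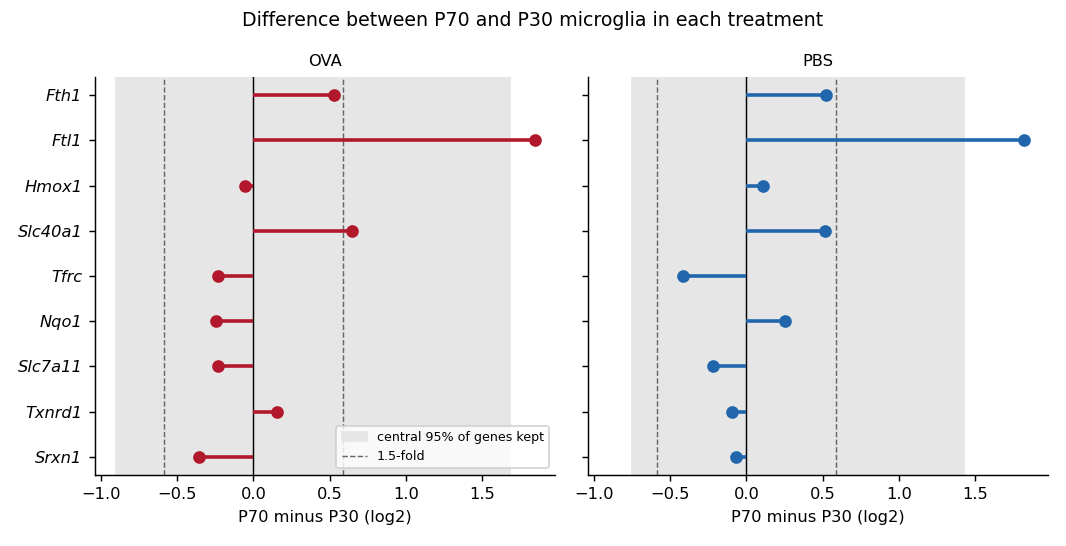
P70 minus P30 difference in log2 units for each of the 9 genes in OVA (left) and PBS (right), each point a difference between 2 arrays, with the 1.5-fold marks dashed and the central 95% of the 19630 genes shaded. Ftl1 lies beyond the shaded range in both treatments (1.84 and 1.82), Fth1 and Slc40a1 lie between 0.51 and 0.64, and the remaining 6 genes lie between -0.41 and 0.25. Among the 9815 expressed genes alone, Ftl1 ranked number 354 from the top in OVA and number 230 in PBS.

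Genes of the profile most like that of Ftl1 were sought among expressed genes, by the Euclidean distance between mean-centred log2 levels on the 4 arrays. Ftl1 was the single expressed member whose levels spanned at least 1 log2 unit. The nearest of 9814 genes were Sap30 (distance 0.17) and Timm13 (0.19). Sap30, a gene of a histone deacetylase complex, was higher in OVA by 0.63 at P70 and 0.53 at P30. Timm13, a gene of the mitochondrial inner membrane import machinery, was higher by 0.53 and 0.35. With 4 arrays, such likeness is a description of these arrays.

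Other genes of iron and haem handling stayed mostly within 1.5-fold of PBS. Of 28 further iron handling genes, 27 were found and 18 were expressed. None was at least 1.5-fold apart at P70 (median 0.15, or 0.06 after median centring), although Lrp1, a gene of a scavenger receptor that takes up haem bound to haemopexin, was at 0.52 as deposited and 0.67, past 1.5-fold, after quantile normalization. At P30 1 gene was lower (median -0.04). That gene was Ltf, which encodes the iron-binding granule protein lactoferrin of neutrophils. It was at 12.44 in OVA and 11.96 in PBS at P70, and at 8.77 in OVA and 9.66 in PBS at P30. Its differences were 0.48 at P70 and -0.89 at P30, against the direction of Ftl1 at the younger age. Of 15 genes of haem synthesis and breakdown, 14 were found and none was at least 1.5-fold apart at either age. Among them, Fech, which inserts iron into the haem ring, differed by 0.41 at P70 and 0.23 at P30. Cpox, an earlier enzyme of the route, differed by -0.31 and 0.40, and Flvcr1, a haem exporter gene, by -0.38 and -0.35. All 10 iron-sulfur cluster genes found of 12 listed were within 1.5-fold, and Isca1, an assembly factor gene, came closest with 0.18 at P70 and 0.53 at P30, the P30 value reaching 0.59, past 1.5-fold, after quantile normalization.

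The regulators of the antioxidant programme were also within 1.5-fold of PBS, all 10 of them found. Bach2 differed most, by 0.41 at P70 and 0.13 at P30, and the small MAF partner genes Mafk and Maff differed by 0.33 and 0.07 at P70 and by -0.08 and -0.30 at P30. Named after their values were seen, Nfe2l2, the gene of NRF2 itself, differed by 0.26 and 0.15, its inhibitor gene Keap1 by 0.10 and 0.04, and Bach1 by 0.13 and -0.25. At P70 the 10 regulators had a median of 0.15, beside 0.079 over expressed genes, and of 0.06 after median centring. Of 21 further NRF2 targets, 18 were found. Cbr1, a carbonyl reductase gene under the floor, was the 1 that was at least 1.5-fold higher at P70 (0.74), and it differed by -0.11 at P30. Of 36 genes for glutathione, thioredoxin and peroxide removal, 32 were found, and Sesn3, a sestrin gene, was the 1 at least 1.5-fold higher at P70. Its level was 9.53 in OVA and 8.69 in PBS at P70, and 7.63 in OVA and 7.20 in PBS at P30, so it was higher in OVA by 0.84 and 0.43. Sod1, the cytosolic superoxide dismutase gene, joined it at P70 after quantile normalization alone, at 0.85 against 0.43 as deposited. The probe sets of Sesn3 disagreed in size, since their mean was higher in OVA by 0.31 at P70 and 0.34 at P30.

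Among genes tied to oxidant production, Cybb and Rac2 stood apart at P70. Of 7 NADPH oxidase and nitric oxide synthase genes, 6 were found. At P70 2 of the 6 were at least 1.5-fold higher in OVA, against 2.4% of all 19630 genes. The others were within 1.5-fold at P70, with Cyba at 0.08, Ncf4 at 0.13, Ncf1 at -0.01 and Nos2 at -0.07. The list median at P70 was 0.10. Cybb, the catalytic subunit gene of the phagocyte oxidase, was at 11.83 in OVA and 10.84 in PBS at P70, and at 8.25 in OVA and 8.81 in PBS at P30, with differences of 1.00 and -0.56, and with -0.61, past 1.5-fold, at P30 after quantile normalization. Rac2, the small GTPase gene that activates the complex, differed by 0.77 and -0.35. Both were higher in OVA at P70 and lower at P30, under every scaling tried, whereas Ftl1 was higher at both ages; the difference between these patterns was not tested. Of the 7 lipid genes of ferroptosis, all found, the 5-lipoxygenase gene Alox5 was the 1 at least 1.5-fold apart, at 0.61 at P70 and 0.05 at P30, and at P70 it was 0.52 after median centring and 0.46 after centring along the level.

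**Figure D5:**
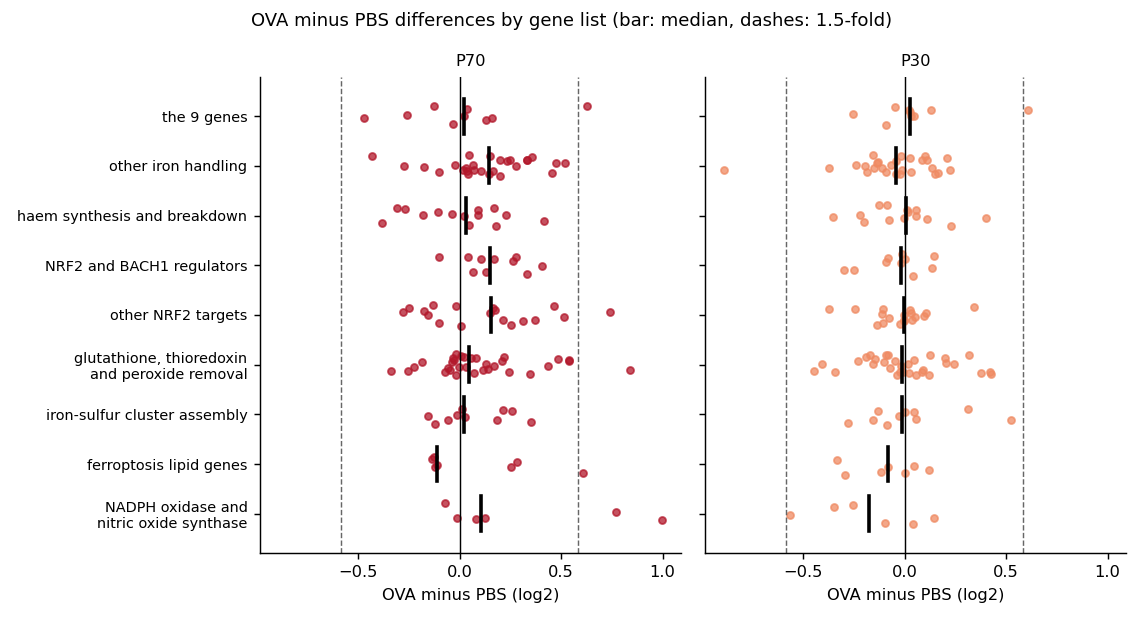
OVA minus PBS differences in log2 units at P70 (left) and P30 (right) for the 9 genes and 8 further lists of iron, haem and redox genes, 1 point per gene found, a bar at each list's median and dashes at 1.5-fold. Medians run from -0.11 (ferroptosis lipid genes) to 0.16 (other NRF2 targets) at P70 and from -0.18 (NADPH oxidase and nitric oxide synthase) to 0.03 (the 9 genes) at P30, and Ltf is the 1 point below the lower dash at P30.

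Many redox genes were higher at P70 than at P30. Of the 32 genes for glutathione, thioredoxin and peroxide removal, 14 were at least 1.5-fold higher at P70 in OVA and 13 in PBS. None was lower as deposited. Among the 24 that were expressed the numbers higher were 13 and 12, against 35.8% and 26.9% of all expressed genes. Centred along the level, 11 of the 32 were higher and 3 lower in OVA, and 10 higher and 1 lower in PBS. Over all 19630 genes under that centring, 1579 were at least 1.5-fold higher and 1614 lower in OVA. In PBS 1276 were higher and 1216 lower. Examples from the list, named after their values were seen, are Sod1 and Gpx1, a glutathione peroxidase gene. As deposited, Sod1 was higher by 2.62 in OVA and 2.10 in PBS, and Gpx1 by 2.61 and 1.92. Centred along the level, Sod1 was higher by 1.45 and 1.11 and Gpx1 by 1.51 and 1.07. Of the 10 iron-sulfur cluster genes, 7 were higher at P70 in each treatment, with medians of 1.12 in OVA and 1.00 in PBS, and after centring along the level 4 were higher in OVA and 6 in PBS, with medians of 0.51 and 0.74.

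Markers of other cells differed along with both kinds of comparison. Over all 19630 genes, 2.4% were at least 1.5-fold higher in OVA and 1.42% lower at P70. At P30 these shares were 0.606% and 0.713%. Border-associated macrophage markers were at least 1.5-fold higher in OVA at P70 for 4 of 8 genes and at P30 for 0 of 8. At P30 2 of the 8 were above 0, and the median was -0.20. Ms4a7 was at -0.58 at P30, and at -0.65, past 1.5-fold, after quantile normalization. The log2 of the summed macrophage marker intensity was 12.78 in OVA and 11.33 in PBS at P70, and 10.81 in OVA and 11.08 in PBS at P30. Neutrophil markers were at least 1.5-fold lower in OVA for 2 of 11 genes at P70 and 7 of 11 at P30. S100a8 was also past 1.5-fold at P70 after median centring (-0.60) and centring along the level (-0.63). The summed neutrophil level was 19.52 in OVA and 19.76 in PBS at P70, and 14.49 in OVA and 16.11 in PBS at P30. Monocyte markers were higher in OVA for 2 of 6 genes at P70 and 0 of 6 at P30, with a summed level of 14.57 in OVA and 14.40 in PBS at P70, and 11.00 in OVA and 10.90 in PBS at P30. Ms4a4c was at 0.55 at P70, and at 0.63, past 1.5-fold, after quantile normalization. Choroid plexus markers, of the tissue that secretes cerebrospinal fluid, were higher in OVA for 1 of 6 genes at each age, and 4 of the 6 were under the floor on every array. That gene was Ttr, which encodes the carrier protein transthyretin, at 12.02 in OVA and 7.90 in PBS at P70, and at 9.32 in OVA and 7.45 in PBS at P30. Its differences of 4.12 and 1.87 went the same way as those of Ftl1 at both ages, and the summed level of the list was 12.14 in OVA and 9.10 in PBS at P70, and 10.02 in OVA and 9.01 in PBS at P30. Astrocyte markers were higher in OVA for 2 of 7 genes at P70 (Ndrg2 by 0.89 and Slc1a3 by 0.70, or 0.55 for Slc1a3 after centring along the level) and 0 of 7 at P30. The other 5 were under the floor on every array and lay between -0.10 (Aldh1l1) and 0.31 (Slc1a2) at P70. The summed astrocyte level was 10.65 in OVA and 10.11 in PBS at P70, and 10.09 in OVA and 9.99 in PBS at P30. No gene of the erythroid, oligodendrocyte, neuron or endothelial lists was 1.5-fold apart between OVA and PBS at either age, and no marker was listed at 0 on any array. The choroid plexus, astrocyte and monocyte sums were thus higher in OVA at both ages, as Ftl1 was. Such a sum follows its brightest genes. At P30 the median difference was 0.003 over the astrocyte markers (4 of 7 above 0) and -0.01 over the monocyte markers (3 of 6 above 0). Over the choroid plexus markers it was 0.26, with 6 of 6 above 0, though Ttr was the 1 expressed gene among them. At P70 4 of these 6 were above 0, and Clic6 (-0.18) and Otx2 (-0.01) were below it. The macrophage sum was higher in OVA at P70 and lower at P30, and the neutrophil sum was lower at both. In the age comparison all 5 sums were higher at P70 in both treatments. The list medians did not all follow. P70 minus P30 had a median of -0.13 in OVA and -0.15 in PBS over the astrocyte markers. It was 0.08 and -0.01 over the choroid plexus markers, and 1.01 and 0.03 over the border-associated macrophage markers. The microglia, oligodendrocyte and endothelial sums were also higher at P70 in both treatments, and the neuron sum was lower. The part of these cells in the Ftl1 values was not tested.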

How the data were processed

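Microglia of 4 groups were measured on 1 array each, with material of 4 samples pooled per array. The authors deposited a linear intensity for every probe set on every array, after their own normalization and summary. RMA and Affymetrix Expression Console 1.4.1 appear, with no role stated, in the submitters' processing notes. The scaling between arrays and the genome build are not given in the sources used here. Log2 values of the 65956 probe sets were used with no further normalization (Python 3.11.15, pandas 2.3.3). Names came from the 30604 probe sets with exactly 1 symbol; 2146 had several and 33206 had none here, and 827 symbols were updated through a RefSeq table (GRCm38.p6). Symbols of predicted genes, small RNAs, antigen receptor segments and odour or pheromone receptors (10684 probe sets) were dropped, which left 19630 genes, 219 of them with several probe sets. Differences of at least 1.5-fold were counted, and no test was possible with 1 array per group. The code was tested on simulated data. Named genes were all members, list genes at least 1.5-fold apart between OVA and PBS or otherwise up to 3 with the largest difference, and the 2 genes nearest in profile to a member that spanned at least 1 log2 unit. Members and lists were chosen with earlier results of these data known. The alternatives were median centring, quantile normalization, lowess centring along the level (span 0.3), the mean of probe sets, a 2-fold threshold and expressed members alone.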

Additional observations from a re-analysis of the deposited data

Results flagged for a closer look

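Among the 9 genes, 5 had OVA minus PBS differences of opposite sign at the 2 ages, which is what drew attention to them. With 1 array per group the difference between the ages was not tested, and 52.0% of all 19630 genes had opposite signs as well. The P70 difference minus the P30 difference was -0.16 for Hmox1, 0.18 for Tfrc, -0.50 for Nqo1, 0.25 for Txnrd1 and -0.29 for Srxn1. None of these differences reached 1.5-fold at either age, and all of these genes but Txnrd1 lay under the floor.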

How the results depend on the processing

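Of 180 single-gene values recomputed under an alternative scaling or probe set rule, 171 kept their side of 1.5-fold and 145 kept both that side and their sign. Sign changed for 27, 1 of them (Slc40a1 for P70 minus P30 in OVA) from a value of at least 1.5-fold. These totals include the mean of probe sets, which could change no value because each of the 9 genes had a single probe set. The numbers kept are raised by those unchanged values. The number of the 9 genes at least 1.5-fold apart between OVA and PBS at P70 was 1 as deposited and 0 after median centring, after centring along the level and at 2-fold, since Ftl1 was at 0.54 and 0.47 under the centrings; at P30 it was 1 as deposited and 0 at 2-fold. For P70 minus P30 in OVA the number was 2 as deposited and 1 after quantile normalization, after centring along the level and at 2-fold; after median centring it was 3 (1 higher and 2 lower, Srxn1 at -0.71 and Nqo1 at -0.59). Slc40a1 turned to -0.13 there after centring along the level, and the cause was not tested. In PBS the number was 1 as deposited and 2 (1 higher and 1 lower, Tfrc) after median centring. The median of the 9 genes for P70 minus P30 in OVA was -0.05, and 0.59 over the 4 expressed members alone. Over all 19630 genes, the share of higher among genes at least 1.5-fold apart at P70 between OVA and PBS was 62.8% as deposited, 37.8% after median centring, 78.5% after quantile normalization and 48.6% after centring along the level; for P70 minus P30 it was 67.1% in OVA and 72.6% in PBS as deposited, 22.9% and 36.2% after median centring, 87.0% and 84.9% after quantile normalization, and 49.5% and 51.2% after centring along the level. Dim signal limits the 5 genes under the floor. No paired analysis was possible because each group has 1 array and the groups share a single replicate number.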
